A study of Mus musculus with 9 samples.

Results

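The genes of the integrated stress response were followed at the RNA level in G1E cells given human GATA1. The set had 10 members of the 27999 rows in the deposited count table: the heme-regulated kinase gene Eif2ak1, the transcription factor genes Atf4, Atf3 and Ddit3, the phosphatase subunit gene Ppp1r15a, and the target genes Trib3, Asns, Chac1, Sesn2 and Ddit4. They were chosen by symbol, and each matched 1 row. Of the 10 members, 8 had enough counts to be tested, and Atf3 and Chac1 had no count in any library.

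G1E cells are mouse erythroid progenitors grown as a line and have no functional Gata1, the master transcription factor of red cell maturation, so that all groups compared here shared that deficiency. Cells were grown in IMDM with fetal calf serum, stem cell factor and erythropoietin and were infected with virus made in 293T cells. The virus carried a mutant human GATA1, wildtype human GATA1, or the empty HMD vector, with 3 libraries per group that the series calls biological replicates. The mutation, the interval between infection and lysis, and any selection of infected cells are not stated in the labels. RNA was read by Smart-seq2, a full-length method that keeps no strand, and levels are given in CPM, the counts scaled to a common library total after TMM correction.

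The integrated stress response is a common arm of several stress pathways. Kinases that sense a lack of heme, a lack of amino acids, unfolded protein or double-stranded RNA phosphorylate the translation factor eIF2, which slows protein synthesis in general and favours translation of ATF4. ATF4 and the factor it induces, CHOP (the product of Ddit3), then raise genes for amino acid supply, for feedback on the pathway and for cell death. In erythroid cells the best known kinase is HRI, encoded by Eif2ak1, which heme holds inactive and which matches globin synthesis to the heme at hand. ATF4 is controlled largely in translation, through upstream reading frames in its message, and neither ATF4 protein nor eIF2 phosphorylation was measured here.

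With wildtype GATA1, Ddit3, Trib3 and Ppp1r15a rose 5.05-, 4.88- and 4.70-fold over empty vector, Eif2ak1 rose 2.62-fold and Atf4 rose 1.33-fold. Ddit4 fell, to a level 2.15-fold lower. Asns, a classical ATF4 target and the most abundant member, did not pass the test, and neither did Sesn2. With mutant GATA1, no member passed the test against empty vector, and Eif2ak1, Atf4, Ddit3, Trib3 and Ppp1r15a were lower than with wildtype GATA1.

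Library totals lay between 11364358 and 17289307 counts. Human GATA1 was scaled to library totals only, without the TMM correction used for the other levels. It stood at 598 to 706 CPM in the mutant, 715 to 921 CPM in the wildtype and 0 to 0.143 CPM in the empty vector libraries. The labels and the transgene thus went together. Mutant replicates 1 and 2 were much more alike than any other pair of replicates, with a chi-square per degree of freedom of 2.21 against 15.0 to 55.5 for the others, although they differed by more than sampling noise. All 7 markers fixed for G1E progenitors were detected, with summed levels of 2095 to 2444 CPM (mutant), 2481 to 3140 CPM (wildtype) and 2196 to 2565 CPM (empty vector). The transferrin receptor gene Tfrc made up most of that sum in the wildtype libraries, with means of 940, 1910 and 1073 CPM in mutant, wildtype and empty vector libraries. With wildtype GATA1, Tfrc, Epor and, narrowly, Tal1 (adjusted p = 0.0495 in edgeR's test) were called higher than with empty vector, whereas Gata2, Kit and Myb were called lower, Gata2 at 286, 103 and 327 CPM and Kit at 602, 248 and 661 CPM in the same order. Summed levels of 12 granulocyte and monocyte markers were 6.36 to 8.76 CPM (mutant), 1.92 to 2.24 CPM (wildtype) and 8.66 to 10.6 CPM (empty vector), with Elane, Ctsg, Cd14, Ly6c2, S100a8, S100a9 and Itgam at 0 throughout. The sums of 8 lymphoid markers were 37.4 to 45.6, 21.2 to 30.3 and 38.8 to 47.4 CPM in mutant, wildtype and empty vector libraries, with Cd3e at 0. Ptprcap led that sum, at 33.7, 16.1 and 30.4 CPM, and was called lower with wildtype GATA1 than with empty vector, as was Gata3, while Lck was called higher, at 4.23, 7.47 and 4.45 CPM (adjusted p = 0.0429). These sums moved with wildtype GATA1, and their part in the differences described here was not tested. Stromal markers reached at most 0.0878 CPM in any library. In bulk RNA, fewer cells of a type and less RNA per cell cannot be told apart.

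The 250 bases upstream of the start are shown for Ddit3, Ppp1r15a and Trib3, the members that moved furthest and together. They are also shown for Asns, which did not move with them. The Asns window holds the letters of the composite C/EBP-ATF element, through which ATF4 acts. Windows are RefSeq's on GRCm38.p6, written 5′ to 3′ on the strand of the gene, and capitals mark motif matches. The Ddit3 window is chr10:127290543-127290792 on the plus strand, that of Ppp1r15a is chr7:45526269-45526518 on the minus strand, that of Trib3 is chr2:152344061-152344310 on the minus strand, and that of Asns is chr6:7693210-7693459 on the minus strand.
Ddit3: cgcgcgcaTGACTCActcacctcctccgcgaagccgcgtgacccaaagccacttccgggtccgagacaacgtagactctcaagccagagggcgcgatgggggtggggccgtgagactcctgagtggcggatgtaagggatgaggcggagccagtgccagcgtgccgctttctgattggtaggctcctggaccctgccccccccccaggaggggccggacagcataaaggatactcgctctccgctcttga
Ppp1r15a: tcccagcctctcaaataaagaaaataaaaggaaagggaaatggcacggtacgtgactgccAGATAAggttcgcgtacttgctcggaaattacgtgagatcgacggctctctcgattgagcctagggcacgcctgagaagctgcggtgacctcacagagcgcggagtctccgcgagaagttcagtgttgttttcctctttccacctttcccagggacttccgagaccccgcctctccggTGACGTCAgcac
Trib3: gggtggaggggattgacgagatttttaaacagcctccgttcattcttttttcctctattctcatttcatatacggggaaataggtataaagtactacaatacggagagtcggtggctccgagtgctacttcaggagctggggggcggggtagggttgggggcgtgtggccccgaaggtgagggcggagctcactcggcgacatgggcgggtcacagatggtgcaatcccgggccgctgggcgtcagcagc
Asns: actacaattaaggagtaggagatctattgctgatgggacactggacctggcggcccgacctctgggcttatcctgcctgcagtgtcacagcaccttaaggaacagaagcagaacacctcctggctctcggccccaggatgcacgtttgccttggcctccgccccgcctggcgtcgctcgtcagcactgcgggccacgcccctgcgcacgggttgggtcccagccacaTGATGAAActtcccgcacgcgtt

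The motifs were searched on both strands of the 250 bases before the start in 32851 promoter windows. The composite element was written TGATGNAA and was held by 3.45% of windows. The cyclic AMP response element, TGACGTCA, was held by 1.55%, the AP-1 site TGACTCA by 4.46%, the ER stress element by 0.113%, and a GATA site (AGATAA with A or T as its first and A or G as its last letter) by 26.5%. Ppp1r15a had a cyclic AMP response element 12 to 5 bases before its start and a GATA site 190 to 185 bases before it. Ddit3 had an AP-1 site 242 to 236 bases before its start. Asns had the composite element as TGATGAAA, 23 to 16 bases before its start. Composite elements on the opposite strand lay 110 to 103 bases before the start of Atf3 and 193 to 186 bases before that of Chac1, the members without counts. Atf3 also had a pair of GATA sites and Atf4 had 1, 39 to 34 bases before its start. No match to these letters was found in the windows of Trib3, Eif2ak1, Sesn2 and Ddit4. Sites outside the 250 bases, or with other letters, were not searched, so a lack of matches does not show that a gene lacks the element. A match is a run of letters, and binding was not measured.

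Eif2ak1 encodes HRI, the kinase that reports heme shortage to eIF2. Its RNA stood at 107, 112 and 111 CPM in mutant replicates 1, 2 and 3, at 258, 190 and 218 CPM in wildtype replicates 1, 2 and 3, and at 73.2, 90.2 and 90.4 CPM in empty vector replicates 1, 2 and 3. Every wildtype library lay above every mutant library, and every mutant library above every empty vector library. The log2 fold change was 1.39 ± 0.13 (SE) for wildtype against empty vector, with an adjusted p of 9.4e-06 in edgeR's quasi-likelihood test over 9978 genes. Mutant against empty vector gave 0.38 ± 0.13 and an adjusted p of 0.333, so that difference did not pass. Mutant against wildtype gave -1.01 ± 0.13 with an adjusted p of 0.000145. The gene (chromosome 5, 143817788 to 143904251, plus strand, GENCODE M21 on GRCm38) shares 1548 bases with Aimp2 on the other strand, which had 558 to 1143 counts per library. It also overlaps Ankrd61, which had at most 6. Without strand, reads from shared bases cannot be told apart.

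No other eIF2 kinase gene passed the test for wildtype GATA1 against empty vector. Per kilobase of exon, which allows levels of different genes to be set side by side, Eif2ak1 averaged 19.4 (mutant), 39.1 (wildtype) and 14.9 (empty vector) CPM. Eif2ak4, which encodes the amino acid sensor GCN2, averaged 8.13, 5.59 and 7.24 CPM per kilobase in mutant, wildtype and empty vector libraries. Eif2ak2, for the RNA-activated kinase PKR, averaged 3.17, 2.55 and 3.05, and Eif2ak3, for the ER stress kinase PERK, 0.968, 0.864 and 0.694 CPM per kilobase in the same order. Eif2ak1 thus had the highest RNA level of the kinases in every group. For wildtype against empty vector the log2 fold changes were -0.37 (adjusted p = 0.0634) for Eif2ak4, -0.26 (0.348) for Eif2ak2 and 0.32 (0.366) for Eif2ak3. Eif2ak4 was called lower without empty vector replicate 1 (adjusted p = 0.0195) or wildtype replicate 3 (0.0397) and with library totals in place of TMM factors (0.0393), in a range of 0.0195 to 0.200 over the alternatives.

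**Figure D1:**
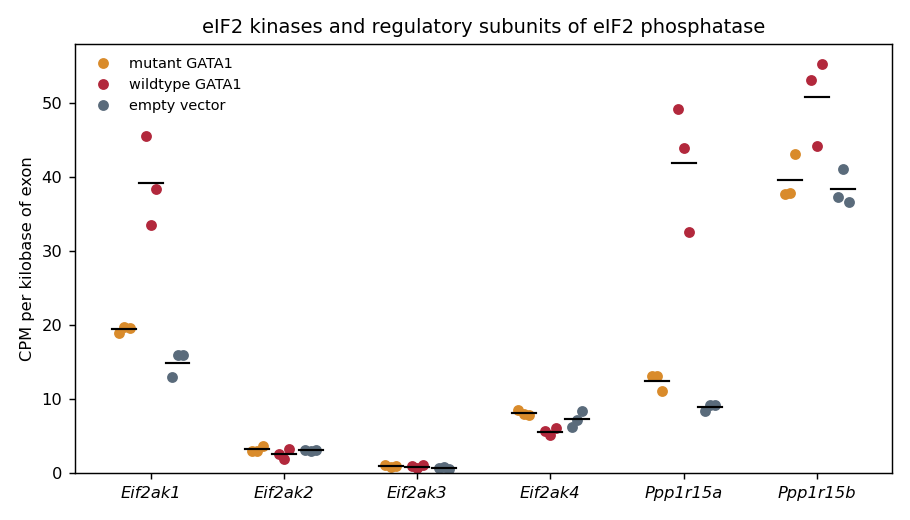
RNA level in CPM per kilobase of exon (linear axis from 0) of the 4 eIF2 kinase genes and of Ppp1r15a and Ppp1r15b, whose products direct phosphatase to eIF2; each point is 1 library, the bars are group means, and the groups run mutant, wildtype and empty vector from left to right. Eif2ak1 is the highest kinase gene in all groups, at 19.4, 39.1 and 14.9 CPM per kilobase. Ppp1r15a, at 12.4, 41.9 and 8.92, has a lower mean than Ppp1r15b, at 39.6, 50.9 and 38.4, in every group and comes nearest in the wildtype libraries.

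Atf4, the central transcription factor gene of the pathway, gave the smallest of the called differences. It stood at 75.8, 77.9 and 74.5 CPM in mutant replicates 1, 2 and 3, at 104, 110 and 91.0 CPM in wildtype replicates, and at 79.2, 74.6 and 75.4 CPM in empty vector replicates. All wildtype libraries lay above all others, and the mutant and empty vector libraries overlapped. Wildtype against empty vector gave a log2 fold change of 0.41 ± 0.11 (adjusted p = 0.0166), mutant against wildtype -0.42 ± 0.11 (0.0148) and mutant against empty vector -0.01 ± 0.11 (0.983). Neither call was firm. Against empty vector the adjusted p was 0.0531 without wildtype replicate 1, 0.0673 without wildtype replicate 2 and 0.0818 without empty vector replicate 2, in a range of 0.00234 to 0.0818 over 17 alternatives. For mutant against wildtype leaving out mutant replicate 1, 2 or 3 gave 0.0671, 0.0547 or 0.0509, and leaving out wildtype replicate 1 or 2 gave 0.0582 or 0.0581, in a range of 0.000635 to 0.0671 over 18 alternatives. Summing mutant replicates 1 and 2, the most alike pair, also ended the mutant against wildtype call (adjusted p = 0.0582 in edgeR's test). Atf4 lies on chromosome 15 from 80255184 to 80257541, plus strand.

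Ddit3, Trib3 and Ppp1r15a, all induced through ATF4 in stressed cells, gave the strongest rise of the set. Ddit3 encodes CHOP, a transcription factor tied to death after prolonged stress. It stood at 23.2, 22.0 and 18.3 CPM in mutant replicates 1, 2 and 3, at 98.1, 89.9 and 67.6 CPM in wildtype replicates, and at 15.8, 17.2 and 17.5 CPM in empty vector replicates. The groups did not overlap: the lowest wildtype library was far above the highest mutant one, and the lowest mutant library was just above the highest empty vector one. The log2 fold change was 2.34 ± 0.16 for wildtype against empty vector (adjusted p = 5.0e-07). Mutant against wildtype gave a log2 fold change of -2.01 ± 0.16 (adjusted p = 2.1e-06), 4.02-fold lower with the mutant. Mutant against empty vector gave 0.33 ± 0.16 (adjusted p = 0.405). Ddit3 (chromosome 10, 127290774 to 127296288, plus strand) shares 68 bases with Mars on the other strand, a gene with 2784 to 5444 counts per library whose wildtype to empty vector difference was 0.12 ± 0.13 on the log2 scale (adjusted p = 0.522).

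Ppp1r15a encodes GADD34, which brings phosphatase to eIF2 and so closes the feedback loop. It stood at 38.5, 38.4 and 32.6 CPM in mutant replicates 1, 2 and 3, at 144, 129 and 95.9 CPM in wildtype replicates, and at 24.6, 26.9 and 27.1 CPM in empty vector replicates. As for Ddit3, the groups did not overlap and wildtype stood far above both others. Wildtype against empty vector gave 2.23 ± 0.16 on the log2 scale (adjusted p = 5.9e-07). Mutant against wildtype gave a log2 fold change of -1.75 ± 0.15 (adjusted p = 5.1e-06), and mutant against empty vector 0.48 ± 0.15 (adjusted p = 0.316). The gene (chromosome 7, 45522916 to 45526268, minus strand) shares 717 bases with Tulp2 on the other strand, which had 2 to 16 counts per library. Ppp1r15b, which encodes the subunit that serves unstressed cells, averaged 39.6, 50.9 and 38.4 CPM per kilobase in mutant, wildtype and empty vector libraries, against 12.4, 41.9 and 8.92 for Ppp1r15a.

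Trib3 encodes a pseudokinase that restrains ATF4 and CHOP. It stood at 18.6, 19.3 and 14.2 CPM in mutant replicates 1, 2 and 3, at 69.6, 55.6 and 36.9 CPM in wildtype replicates, and at 12.2, 9.78 and 11.2 CPM in empty vector replicates. The groups again did not overlap, and the wildtype libraries were the most spread, with a mean of 54.0 ± 16.4 CPM (SD, n = 3). Wildtype against empty vector gave a log2 fold change of 2.29 ± 0.22 (adjusted p = 1.0e-05), mutant against wildtype -1.64 ± 0.21 (0.000145) and mutant against empty vector 0.65 ± 0.22 (0.333). Trib3 lies on chromosome 2 from 152337422 to 152344032, minus strand. In all of these genes and in Atf4, replicate 3 was the lowest library of both the mutant and the wildtype group. Eif2ak1, Ddit3, Trib3 and Ppp1r15a kept their calls for wildtype against empty vector and for mutant against wildtype under every alternative run.

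**Figure D2:**
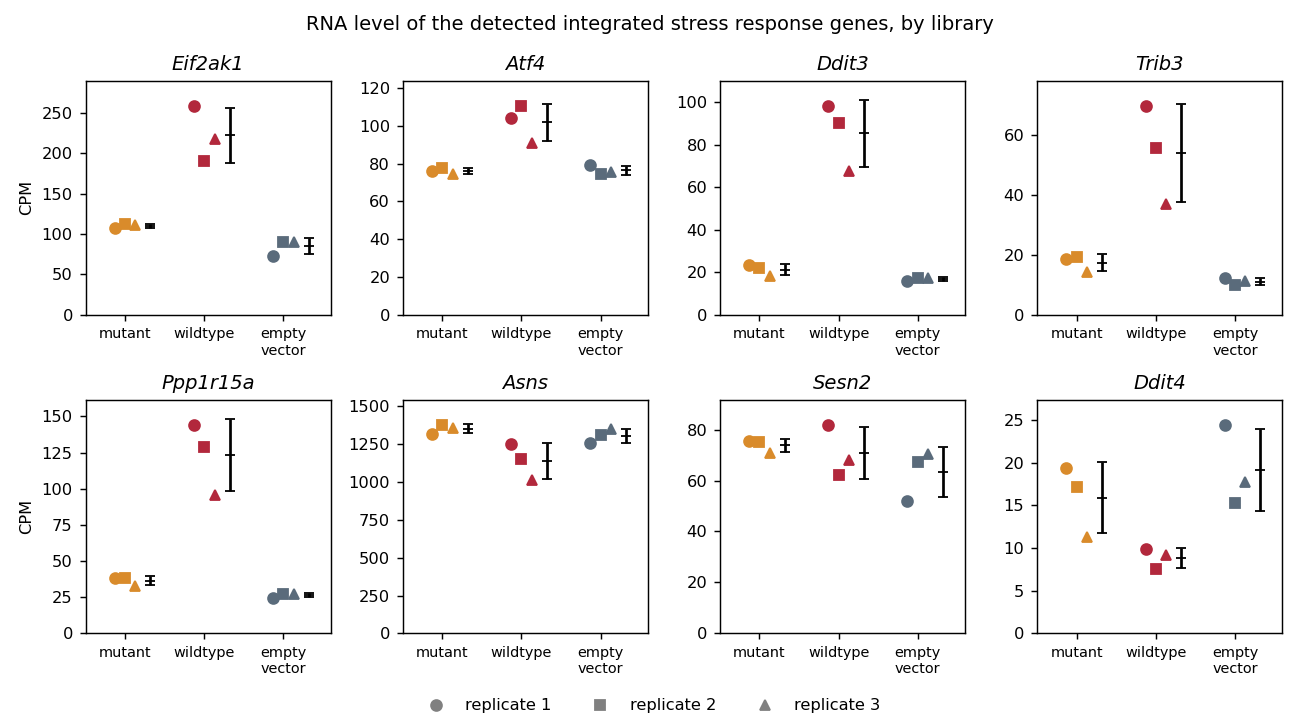
RNA level in CPM (linear axes from 0) of the 8 detected members in each library; marker shapes give the replicate number, and the black bars beside the points give mean ± SD (n = 3) of the mutant, wildtype and empty vector groups from left to right. Ddit3, Trib3, Ppp1r15a and Eif2ak1 stand apart in the wildtype libraries, Asns lies between 1017 and 1380 CPM in every library, and Ddit4 is lowest in the wildtype libraries.

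Asns, Sesn2 and Ddit4 are also known targets of ATF4 and did not follow. Asns encodes asparagine synthetase and was by far the most abundant member per kilobase of exon, at 495 CPM (mutant), 418 CPM (wildtype) and 477 CPM (empty vector). It stood at 1319, 1380 and 1360 CPM in mutant replicates 1, 2 and 3, at 1254, 1155 and 1017 CPM in wildtype replicates, and at 1259, 1309 and 1349 CPM in empty vector replicates. The wildtype libraries were the lowest and did not overlap with either other group, but the differences were small: -0.19 ± 0.11 for wildtype against empty vector (adjusted p = 0.228), 0.24 ± 0.11 for mutant against wildtype (0.119) and 0.05 ± 0.11 for mutant against empty vector (0.859) on the log2 scale. A fit of the 6 mutant and wildtype libraries with the replicate number as a block called Asns higher with the mutant (adjusted p = 0.0321). So did library totals without TMM factors, at 0.0222, in a range of 0.0222 to 0.277. Asns lies on chromosome 6 from 7675169 to 7693254, minus strand.

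Sesn2 encodes sestrin 2, which restrains mTORC1 when leucine is short. It stood at 75.5, 75.1 and 70.8 CPM in mutant replicates 1, 2 and 3, at 82.0, 62.4 and 68.1 CPM in wildtype replicates, and at 52.1, 67.4 and 70.5 CPM in empty vector replicates. Wildtype overlapped with both other groups, and the mutant libraries lay just above the empty vector ones. No comparison passed, with log2 fold changes of 0.16 ± 0.14 for wildtype against empty vector (adjusted p = 0.444), 0.22 ± 0.14 for mutant against empty vector (0.503) and 0.06 ± 0.14 for mutant against wildtype (0.791). Sesn2 (chromosome 4, 132492032 to 132510501, minus strand) contains Gm12981, which had 0 to 3 counts per library.

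Ddit4 encodes REDD1, another inhibitor of mTORC1, and went the other way. It stood at 19.4, 17.1 and 11.3 CPM in mutant replicates 1, 2 and 3, at 9.92, 7.60 and 9.13 CPM in wildtype replicates, and at 24.5, 15.3 and 17.7 CPM in empty vector replicates. All wildtype libraries lay below all others, and mutant and empty vector overlapped. Wildtype against empty vector gave a log2 fold change of -1.10 ± 0.23 (adjusted p = 0.00424), 2.15-fold lower with wildtype, and passed under all 17 alternatives. Mutant against empty vector gave -0.26 ± 0.22 (0.598). Mutant against wildtype gave 0.84 ± 0.23 (0.0194), but the adjusted p was 0.0909 when mutant replicate 1 was left out, 0.0645 for mutant replicate 2 and 0.0727 for wildtype replicate 2, in a range of 0.000539 to 0.0909. Summing mutant replicates 1 and 2, the most alike pair, also ended the mutant against wildtype call (adjusted p = 0.0691 in edgeR's test). Ddit4 lies on chromosome 10 from 59949669 to 59951834, minus strand.

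Atf3 (chromosome 1, 191170296 to 191218039, minus strand), a stress-induced transcription factor gene, and Chac1 (chromosome 2, 119351229 to 119354381, plus strand), whose product degrades glutathione, had 0 counts in all 9 libraries. A count of 0 allowed a level of up to 3 counts, which was 0.169 to 0.289 CPM per library. Genes used by every cell were detected in the same table, but it is unknown here whether reads shared with other genes were counted.

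Over the 8 tested members, 5 were called higher with wildtype GATA1 than with empty vector (Eif2ak1, Atf4, Ddit3, Ppp1r15a and Trib3) at an adjusted p under 0.05, against 11.4% of all genes. Ddit4 was called lower, against 11.9% of all genes, and Asns and Sesn2 were not called; 23.3% of genes were called in either direction. The median log2 fold change of the 8 was 0.90, beside -0.04 over all 9978 genes. The groups did not overlap for 5 members above and 2 below empty vector, where 15.3% and 17.3% of all genes did so, 32.6% together. Ranked from the highest fold change, Ddit3 stood at 125, Trib3 at 129, Ppp1r15a at 138, and Eif2ak1 at 280 of 9978. The background itself moved with single libraries: without empty vector replicate 2, 732 genes were called higher and 706 lower in place of 1137 and 1186, and without wildtype replicate 1, 655 were called lower. The members called higher numbered 4 to 5 when any 1 library was left out, Atf4 being the call lost.

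**Figure D3:**
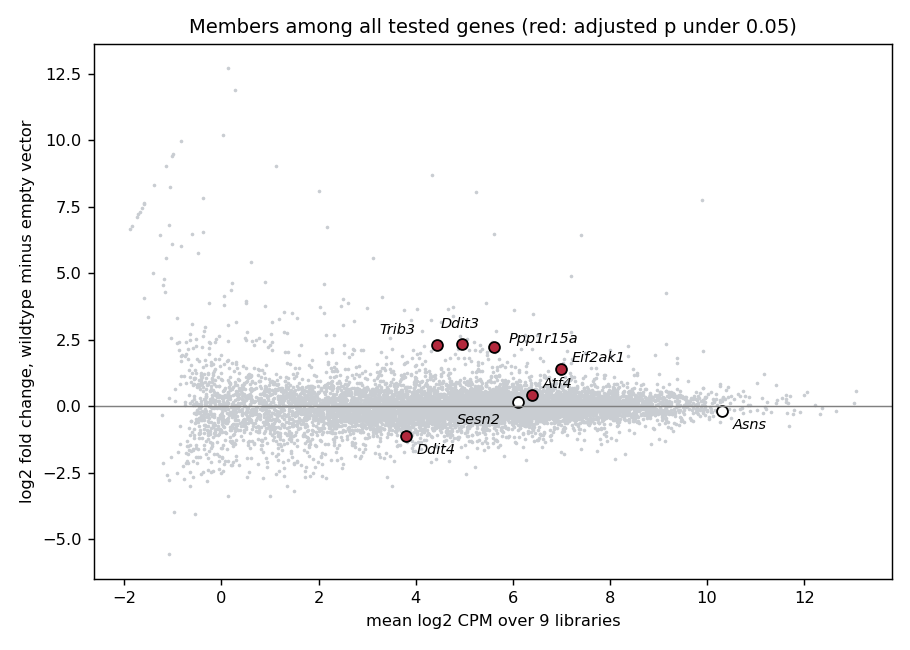
Log2 fold change of wildtype GATA1 against empty vector (vertical axis) against the mean log2 CPM over 9 libraries (horizontal axis) for all 9978 tested genes in grey and the 8 tested members as large circles, red where the adjusted p was under 0.05 and white otherwise. Ddit3, Trib3 and Ppp1r15a lie together at 2.34, 2.29 and 2.23, while Asns, at the highest mean level of the members, lies at -0.19.

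Against the same empty vector libraries, mutant GATA1 gave 0 called members in edgeR's test, where 0.271% of all genes were called (0.21% higher and 0.0601% lower). At an unadjusted p under 0.05 there were 3 of 8 (Eif2ak1, Ppp1r15a and Trib3), against 12.9% of all genes, and DESeq2 called 0. The mutant libraries nevertheless lay above all empty vector libraries for 5 of the 8 members (Eif2ak1, Ddit3, Ppp1r15a, Trib3 and Sesn2) and below them for 0, where 15% of all genes did either, 8.19% above and 6.84% below. The median log2 fold change of the 8 was 0.28, beside -0.00053 over all genes. Trib3 was called when genes with low counts were kept in the test (adjusted p = 0.0298), the only alternative of 17 that called a member, in a range of 0.0298 to 0.878. The background count rested on single libraries: 21 genes were called higher and 6 lower, but 227 and 610 without empty vector replicate 3. It fell to 6 higher and 2 lower without empty vector replicate 1, to 5 and 2 without empty vector replicate 2, and to 10 and 3, 8 and 2, and 12 and 2 without mutant replicates 1, 2 and 3. Leaving out wildtype replicate 3 gave 11 lower calls.

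Set directly against wildtype GATA1, mutant GATA1 gave 5 members called lower (Eif2ak1, Atf4, Ddit3, Ppp1r15a and Trib3), against 12.7% of all genes, and Ddit4 called higher, against 13.2%. In either direction 25.9% of genes were called. The median log2 fold change of the 8 was -0.72, beside -0.01 over all genes. The groups did not overlap for 5 members below and 2 above, where 20.9% and 23.3% of all genes did so, 44.2% together. The wildtype libraries enter both this comparison and that against empty vector, so the opposite signs in each are not independent. Leaving out mutant replicate 1 changed the background to 694 higher and 778 lower in place of 1313 and 1267, and leaving out mutant replicate 2 to 791 and 779. Without wildtype replicate 1 or 2, 758 or 869 genes were called higher. A fit of these 6 libraries with the replicate number as a block called 2323 higher and 2417 lower, and 2 members higher (Ddit4 and Asns) with 5 lower.

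**Figure D4:**
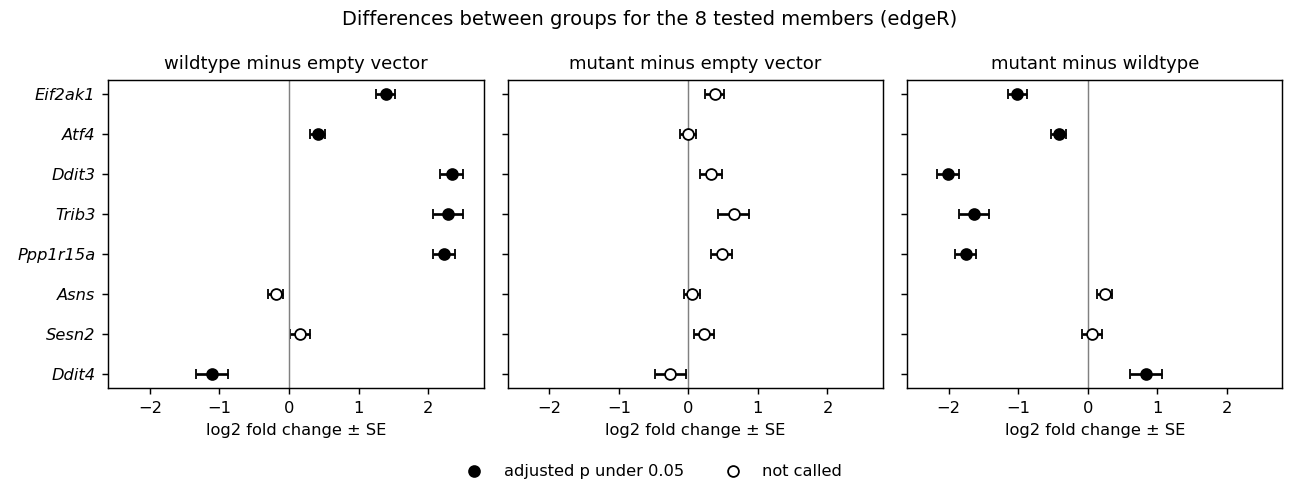
Log2 fold change ± SE of the 8 tested members in the 3 comparisons, from edgeR's fit of 9 libraries; filled points had an adjusted p under 0.05. Against empty vector, Ddit3, Trib3, Ppp1r15a, Eif2ak1 and Atf4 are filled to the right and Ddit4 to the left with wildtype GATA1, and no point is filled with mutant GATA1. For mutant against wildtype GATA1, Ddit3, Trib3, Ppp1r15a, Eif2ak1 and Atf4 are filled to the left and Ddit4 to the right.

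The wider machinery around eIF2 was followed in 18 tested genes. They were genes for eIF2 kinases, phosphatase parts, eIF2 subunits and the exchange factor eIF2B, with the regulator genes Dnajc3, Impact and Nck1. The members Eif2ak1 and Ppp1r15a were not in this list. With wildtype GATA1, 1 was called higher and 0 lower, beside 11.4% and 11.9% of all genes, with a median log2 fold change of 0.16. The called gene was Ppp1r15b, at 221 ± 17.0, 285 ± 32.6 and 215 ± 13.7 CPM in mutant, wildtype and empty vector libraries (SD, n = 3), with a log2 fold change of 0.41 ± 0.12 and an adjusted p of 0.0251. Leaving out wildtype replicate 1 gave 0.0742, and leaving out empty vector replicate 1, 2 or 3 gave 0.0556, 0.0510 or 0.0570, in a range of 0.00310 to 0.0906. The count of genes called higher was 0 when wildtype replicate 1, empty vector replicate 1 or empty vector replicate 2 was left out, but 6 when wildtype replicate 3 was. A single gene was called lower when wildtype replicate 3, empty vector replicate 1 or empty vector replicate 3 was left out. DESeq2 called 2 higher and 0 lower, and 6 of the 18 genes had an unadjusted p under 0.05, as did 36.5% of all genes. Eif2b3, for an eIF2B subunit, gave 0.30 ± 0.10 and did not pass (adjusted p = 0.0517). Mutant against wildtype gave 1 higher (Eif2ak4) and 3 lower (Eif2b3, Eif2s1 and Ppp1r15b), beside 13.2% and 12.7% of all genes. The lower count was 0 when mutant replicate 1 or 2 was dropped and 1 when wildtype replicate 1 or 2 was, and the higher count was 0 when replicate 1 of either group was dropped. With the replicate number as a block the lower count was 0 in the fit of 9 libraries and 6 in that of the 6 libraries compared.

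Genes of amino acid synthesis and transport, the classical ATF4 programme, had calls in both directions. Of 16 tested genes, 3 were called higher with wildtype GATA1 than with empty vector (Slc6a9, Mthfd2 and Slc1a5) and 2 lower (Slc3a2 and Mthfd1l), beside 11.4% and 11.9% of all genes, with a median of -0.12. Slc6a9 encodes the glycine transporter GlyT1, which erythroid cells use to supply glycine for heme. It averaged 2.56 ± 0.745, 25.8 ± 3.64 and 1.06 ± 0.172 CPM in mutant, wildtype and empty vector libraries, with a log2 fold change of 4.60 ± 0.25 (adjusted p = 5.6e-08). Mthfd2, a mitochondrial folate enzyme gene, averaged 143 ± 2.52, 282 ± 30.4 and 135 ± 4.51 CPM in the same order, with 1.06 ± 0.11 (adjusted p = 1.6e-05). Slc1a5, for a glutamine transporter, averaged 39.1 ± 2.27, 66.0 ± 4.82 and 34.7 ± 4.79 CPM, with 0.93 ± 0.13 (0.000244). Slc3a2, for the chain shared by several amino acid exchangers, went down, at 450 ± 28.7, 316 ± 14.2 and 532 ± 69.9 CPM, with -0.75 ± 0.12 (0.000545). All of these 3 higher genes kept their calls under every alternative, whereas the lower count was 1 without any of 7 single libraries (all but wildtype replicate 3 and empty vector replicate 1), Mthfd1l being the weaker call at 0.0367. Phgdh, for the first enzyme of serine synthesis, and Bcat1 had 0 counts in every library.

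The aminoacyl-tRNA synthetase genes form another ATF4 group. They were listed together with Xpot, a tRNA export gene, which is counted among the synthetases here and below. Of 13 tested genes, 2 were called higher with wildtype GATA1 (Aars and Cars) and 0 lower, beside 11.4% and 11.9% of all genes, with a median of 0.07. DESeq2 also called 2 and 0, and 2 of the 13 had an unadjusted p under 0.05 in edgeR's test, against 36.5% of all genes. Aars averaged 310 ± 16.3, 371 ± 49.9 and 259 ± 46.1 CPM in mutant, wildtype and empty vector libraries, with a log2 fold change of 0.52 ± 0.14 (adjusted p = 0.0192). Cars gave 0.38 ± 0.12 (0.0358), and Sars gave 0.26 ± 0.14 and did not pass (0.181). The count was 0 when wildtype replicate 1 or empty vector replicate 1 or 2 was left out, and 1 when mutant replicate 1 or 2 or wildtype replicate 2 was.

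Other ATF4 or CHOP targets included strong risers beside many that did not pass. Of 16 tested genes, 4 were called higher with wildtype GATA1 (Nupr1, Gadd45a, Atf5 and Map1lc3b) and 1 lower (Txnip). This stood beside 11.4% and 11.9% of all genes, with a list median of -0.06. Nupr1, for a stress-induced chromatin protein, averaged 1.15 ± 0.447, 6.28 ± 1.28 and 0.956 ± 0.232 CPM in mutant, wildtype and empty vector libraries, with a log2 fold change of 2.69 ± 0.32 (adjusted p = 5.1e-05). Gadd45a, a growth arrest gene, averaged 7.07 ± 1.15, 21.6 ± 0.626 and 7.28 ± 2.11 CPM, with 1.57 ± 0.21 (0.000118). Map1lc3b, for the autophagosome protein LC3B, averaged 113 ± 7.66, 237 ± 26.0 and 117 ± 14.9 CPM, with 1.01 ± 0.13 (8.6e-05). All 3 were also lower with mutant than with wildtype GATA1, at -2.43, -1.62 and -1.07. Leaving out wildtype replicate 1 or empty vector replicate 2 ended the call of Txnip, and leaving out replicate 3 of either group gave 2 lower calls. Jdp2, Fgf21, Stc2, Vldlr and Pmaip1 had 0 counts in every library.

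Chaperones and sensors of the ER unfolded protein response did not rise with the members. Of 19 tested genes, 0 were called higher with wildtype GATA1 in edgeR's test, DESeq2 called 1 higher, and 10 of the 19 had an unadjusted p under 0.05 in either direction, against 36.5% of all genes. Called lower were 4 (Xbp1, Pdia4, Ern1 and Sel1l), with a list median of -0.18. Of all genes, 11.4% were called higher and 11.9% lower. Xbp1, for the main transcription factor of this response, averaged 211 ± 10.2, 148 ± 15.1 and 206 ± 11.4 CPM in mutant, wildtype and empty vector libraries, with a log2 fold change of -0.48 ± 0.11 (adjusted p = 0.00775), and the call was lost without wildtype replicate 1 (0.0803). The count of 4 became 0 when wildtype replicate 1 was left out, 2 for wildtype replicate 2, and 1 for mutant replicate 1 or empty vector replicate 2. Ern1, which encodes the ER sensor IRE1, averaged 22.6 ± 1.30, 11.2 ± 0.560 and 15.6 ± 0.694 CPM, and it was higher with mutant than with wildtype GATA1, at 1.01 ± 0.14 (adjusted p = 0.000205), under every alternative run. Without empty vector replicate 3, 1 gene of the list was called higher.

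Immediate early genes, which answer many stimuli within minutes, and p53 targets were set beside these lists because both answer other stresses. Of 15 tested immediate early genes, 4 were called higher with wildtype GATA1 (Dusp1, Btg2, Junb and Jun). Called lower were 6 (Egr1, Fosl1, Ier2, Ier3, Klf6 and Myc). This stood beside 11.4% and 11.9% of all genes, with a list median of -0.21. Dusp1, for a MAP kinase phosphatase, averaged 12.9 ± 2.06, 126 ± 1.45 and 9.88 ± 0.145 CPM in mutant, wildtype and empty vector libraries, with a log2 fold change of 3.67 ± 0.14 (adjusted p = 2.7e-09). Btg2, an antiproliferative gene, averaged 9.96 ± 1.09, 85.2 ± 9.63 and 8.94 ± 0.722 CPM, with 3.25 ± 0.15 (1.3e-08), and Egr1 averaged 34.3 ± 2.31, 15.1 ± 2.64 and 37.2 ± 6.15 CPM, with -1.30 ± 0.17 (0.000107). Without wildtype replicate 1, 3 of these genes were called lower. The p53 list left out Btg2 and Gadd45a, which were placed in other lists. Of its 12 tested genes, 1 was called higher (Eda2r, 0.83 ± 0.23, adjusted p = 0.0200) and 0 lower. This stood beside 11.4% and 11.9% of all genes, with a list median of -0.03. DESeq2 called 1 higher and 0 lower, and 4 of the 12 had an unadjusted p under 0.05, against 36.5% of all genes. Zmat3 (-0.40 ± 0.15, adjusted p = 0.0687) and the cyclin gene Ccng1 (-0.51 ± 0.20, 0.0828) did not pass. Leaving out wildtype replicate 1 (0.0792) or empty vector replicate 3 (0.0573) ended the call of Eda2r, and lower calls numbered 2 when replicate 3 of either group was dropped and 1 when empty vector replicate 1 was.

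With mutant GATA1, 0 genes of any of these 7 lists were called against empty vector in edgeR's test, beside 0.271% of all genes. At an unadjusted p under 0.05, where 12.9% of all genes lay, there were 4 of 18 for the eIF2 machinery, 1 of 16 for amino acid supply, 0 of 13 for the synthetases, 4 of 16 for the other targets, 2 of 19 for the ER response, 5 of 15 for immediate early genes and 3 of 12 for p53 targets. The list medians lay between -0.23 and 0.09. DESeq2 called Slc6a9 (adjusted p = 0.0139) and Ern1 (0.0440) higher. With no low-count filter, 1 gene was called higher in each of the amino acid, other target and immediate early lists. Called lower in that setting were 2 eIF2 machinery genes, 2 p53 targets, 1 other target, 1 ER response gene and 1 immediate early gene. Of all genes, 119 were then called higher and 296 lower. Without empty vector replicate 3, 1 gene was called higher in each of the amino acid, ER and immediate early lists, and 5 eIF2 machinery genes, 3 p53 targets, 1 other target and 1 immediate early gene were called lower. Over the 7 lists together, the genes with the smallest p gave values on either side of 0, none past the threshold. They were all negative for the eIF2 machinery and p53 targets and all positive for the synthetases. For the eIF2 machinery the log2 fold changes were -0.54 for Eif2s1 (adjusted p = 0.346), -0.47 for Eif2s2 (0.355), which encode eIF2 subunits, and -0.74 for the phosphatase gene Ppp1cb (0.379). For amino acid supply they were 1.28 for Slc6a9 (0.111), -0.24 for Slc3a2 (0.408) and -0.21 for the serine synthesis gene Psat1 (0.447). The synthetase genes Aars, Eprs and Cars gave 0.26 (0.443), 0.18 (0.578) and 0.13 (0.624).

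Among the other targets, the ER oxidase gene Ero1l gave -0.54 for mutant GATA1 against empty vector (adjusted p = 0.291), Atf5 0.71 (0.333) and the growth factor gene Vegfa -0.92 (0.343). In the ER response, Ern1 gave 0.53 (0.173), while the chaperone genes Dnajb9 and Canx gave -0.66 (0.382) and -0.25 (0.488). The immediate early genes Jun, Ier3 and Dusp1 gave 1.22 (0.0741), -0.65 (0.189) and 0.38 (0.343). Of the p53 targets, Ccng1 gave -0.53 (0.349), the ribonucleotide reductase gene Rrm2b -0.71 (0.355) and Mdm2, for the ligase that restrains p53, -0.29 (0.359). Among these list genes, Jun thus came nearest to the threshold.

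Mutant against wildtype GATA1 called 13.2% of all genes higher and 12.7% lower. The higher and lower calls were 3 and 3 of 16 for amino acid supply and 0 and 0 of 13 for the synthetases. They were 1 and 4 of 16 for the other targets and 5 and 1 of 19 for the ER response. For immediate early genes they were 5 and 3 of 15, and for p53 targets 1 and 3 of 12. For the synthetases DESeq2 also called 0, and 0 of 13 had an unadjusted p under 0.05, against 39.1% of all genes; Eprs gave 0.25 ± 0.15 (adjusted p = 0.229). The p53 targets called were Zmat3 (0.51 ± 0.15, adjusted p = 0.0234), higher with the mutant, and Eda2r, Phlda3 and Trp53inp1, lower. Trp53inp1 gave -0.84 ± 0.24 (0.0224), and its call was lost when mutant replicate 1 (0.0687), mutant replicate 2 (0.0839), wildtype replicate 1 (0.0513) or wildtype replicate 3 (0.0527) was left out, in a range of 8.4e-06 to 0.0839. Single libraries moved these counts. Without mutant replicate 1 the higher count for amino acid supply was 1. Without mutant replicates 1 or 2 or wildtype replicate 1, that for the other targets was 0. For the ER response, without any 1 mutant library or wildtype replicates 1 or 2, the higher count was 3, and the lower count was 0 without mutant or wildtype replicates 1 or 2 and 2 without empty vector replicate 3. The call of Zmat3 was lost without any 1 mutant library or wildtype replicates 1 or 2, with adjusted p between 0.000365 and 0.0893 over its alternatives, and 0 p53 targets were then called higher. The list had 1 called lower without mutant replicate 2 or wildtype replicate 1. When the 6 libraries were fitted with the block, the higher and lower counts were 1 and 2 for the synthetases and 2 and 5 for p53 targets, with 2 other targets higher and 2 ER response genes lower.

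**Figure D5:**
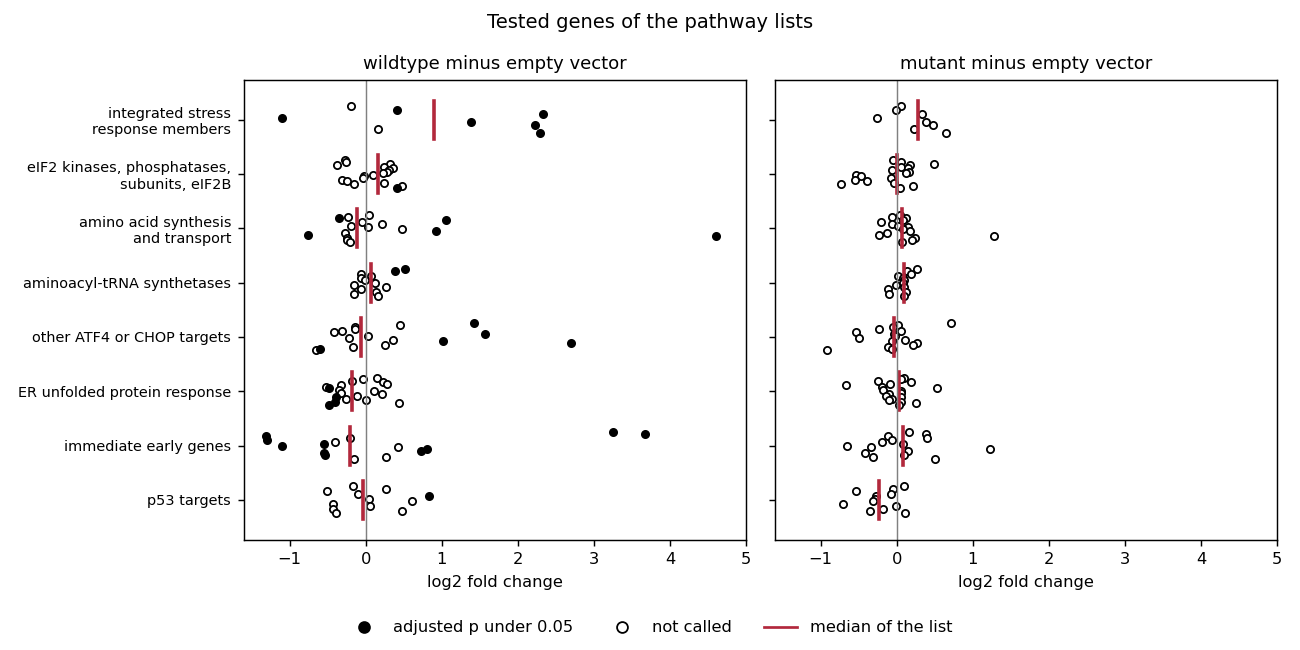
Log2 fold change of each tested gene in the 8 lists for wildtype GATA1 against empty vector (left) and mutant GATA1 against the same empty vector libraries (right), with filled points for an adjusted p under 0.05 and red lines for list medians. With wildtype GATA1 the median of the members is 0.90 while those of the other lists lie between -0.21 and 0.16, and no point is filled with mutant GATA1.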

How the data were processed

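The authors deposited 1 table of raw counts per gene for 9 libraries. STAR and the builds GRCm38.p4 and hg19 are named per the submitters' processing notes, with no versions; the counting tool and annotation are not stated there. The members and gene lists were chosen with earlier results of these data known.

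Counts were tested with edgeR 4.0.16 (limma 3.58.1, R 4.3.3): TMM factors, filterByExpr (9978 genes), and 1 quasi-likelihood fit of all 9 libraries with a mean per group and 6 residual degrees of freedom. P-values were adjusted by Benjamini-Hochberg within each comparison, with calls at an adjusted p under 0.05. The fitting code was tested on simulated counts with known changes. The SE, an approximation, is the size of the log2 fold change divided by the square root of its F-statistic. P-values weigh the difference between groups against the spread of these libraries only. Floors of 3 counts cover counting error only. Group means are over 3 libraries. CPM per kilobase used the summed exon length in GENCODE M21, whose coordinates are given.

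The text names all members and, from each of 7 lists, the 3 tested genes with the smallest unadjusted p per comparison. Others were named after their values were seen: genes that make up a short count, overlapping genes, and relatives of the members. The level of 1 marker gene is not reported here. Same-numbered mutant and wildtype libraries deviated together from their group means (correlations of 0.17, 0.29 and 0.53), so the numbers were taken to pair these groups. Unlike numbers 1 and 2 deviated together about as much (0.24 for mutant 1 with wildtype 2, and 0.22 for mutant 2 with wildtype 1), so these values set replicate 3 apart and do not separate 1 from 2. The origin of the pairing is not given in the labels. Same-numbered empty vector libraries deviated the opposite way from both groups (-0.20 to -0.44). Unlike-numbered ones ranged from -0.22 (mutant 1 with empty vector 2) to 0.41 (wildtype 3 with empty vector 2). The numbers were therefore not taken to pair the empty vector libraries. The block over 9 libraries joins them to libraries that deviated the opposite way.

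Alternatives were RLE factors, library totals only, DESeq2 1.42.0, no low-count filter, a filter of 5 CPM in 3 libraries, the replicate block, only the 6 libraries compared, mutant replicates 1 and 2 summed, and each library left out. The block within the 6 mutant and wildtype libraries was added after seeing the data.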

Additional observations from a re-analysis of the deposited data

How the results depend on the processing

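Eif2ak1, Ddit3, Trib3 and Ppp1r15a kept direction and call for wildtype against empty vector and mutant against wildtype under every alternative run. Over all 8 members and 3 comparisons, 390 alternative values kept direction and side of the threshold, 14 lost a call, 3 gained one and 9 changed sign. For mutant against empty vector, Atf4 (-0.01 on the log2 scale) changed sign with RLE factors (0.0042), library totals only (0.0093), DESeq2 (0.0051), only the 6 libraries compared (0.0067) and with 1 library left out (-0.0237 to 0.0209). Sesn2, at 0.06 for mutant against wildtype, lay between -0.0253 and 0.172 with 1 library left out. Library totals only shifted the median of all genes by -0.09 for wildtype against empty vector and by 0.11 for mutant against wildtype. Where no cause is given, the cause was not tested.

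For mutant against empty vector, 21 genes were called higher and 6 lower. DESeq2 gave 59 and 37, and no low-count filter 119 and 296, with 1 member higher. The replicate block gave 12 and 2, the summed mutant libraries 9 and 2, library totals only 3 lower, and leaving out 1 library 5 to 227 and 2 to 610. For mutant against wildtype, 1313 were higher and 1267 lower, and the replicate block in the 6 libraries gave 2323 and 2417, with 2 members higher. The summed mutant libraries gave 779 and 772, with 0 members higher, and 1 library left out 694 to 1581 and 778 to 1577, with 0 to 1 member higher. Library totals only called 2 members higher. For wildtype against empty vector, 1 library left out gave 732 to 1614 higher and 655 to 1641 lower. The block over 9 libraries, in which the empty vector numbers do not match the others, changed no call of a member. Atf3 and Chac1 had 0 counts in every library, which allows up to 3 counts per library, and whether reads of these genes were dropped in counting is unknown.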

Other observations

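Relatives of the members did not all move as the members did; they were chosen after seeing the data. Atf5, a relative of Atf4, averaged 10.2 ± 2.36, 16.7 ± 5.04 and 6.24 ± 0.840 CPM in mutant, wildtype and empty vector libraries (SD, n = 3). Wildtype against empty vector gave a log2 fold change of 1.42 ± 0.24 in edgeR's test (adjusted p = 0.000983), and mutant against wildtype -0.71 ± 0.23 (0.0417), although those libraries overlapped. Trib1, a pseudokinase gene related to Trib3, was low throughout and fell where Trib3 rose, at 1.17 ± 0.507, 0.325 ± 0.186 and 1.79 ± 0.353 CPM in mutant, wildtype and empty vector libraries, with -2.45 ± 0.48 for wildtype against empty vector (0.00246). Trib2 had 0 counts in every library.

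Cebpe, a C/EBP family gene of granulocyte maturation, averaged 2.19 ± 0.211, 0.229 ± 0.0789 and 0.828 ± 0.132 CPM in mutant, wildtype and empty vector libraries. Mutant against wildtype gave a log2 fold change of 3.18 ± 0.38 (adjusted p = 6.3e-05) and wildtype against empty vector -1.79 ± 0.44 (0.00994). Wildtype replicates 1, 2 and 3 held only 4, 2 and 2 counts of Cebpe, near the floor of 3 counts, so the sizes of these 2 differences are uncertain. Mutant against empty vector gave 1.39 ± 0.28 and did not pass (0.0741), although every mutant library lay above every empty vector library. Among other C/EBP genes, Cebpb averaged 0.226, 0.285 and 0.257 CPM in the same order and was too low to test, Cebpa had 0 counts, and Cebpg gave -0.15 ± 0.20 for wildtype against empty vector (0.631). Chac2, which like the undetected Chac1 encodes a glutathione-degrading enzyme, averaged 9.44 ± 1.24, 20.3 ± 3.05 and 16.0 ± 6.58 CPM, with -1.11 ± 0.26 for mutant against wildtype (0.00827). Sesn1 averaged 103 ± 6.47, 108 ± 6.83 and 104 ± 11.9 CPM, and no comparison of it passed. The values of these relatives with single libraries left out are not given.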
